A study of Homo sapiens with 16 samples.

Results

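Autophagy core and receptor genes were described as a function of time in SUM225 breast cancer cells whose HER2 kinase was inhibited. The 9 genes were ULK1, BECN1, WIPI1, MAP1LC3B, GABARAP, GABARAPL1, GABARAPL2, SQSTM1 and BNIP3L, taken by symbol from a table of 18631 gene symbols. They had 11 of the 24526 probes of that table, and 10 of these probes passed the filter on dim signals. The ULK1 probe ILMN_1744560 was detected on 0 of the 16 arrays and was not tested. Each of the 9 genes therefore had at least 1 tested probe.

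Autophagy encloses cytoplasm in a membrane of its own, the autophagosome, and delivers it to the lysosome for breakdown. The ULK1 kinase complex starts the process, the class III PI3-kinase complex with BECN1 makes the lipid PI3P, WIPI proteins bind that lipid on the growing membrane, and the ubiquitin-like ATG8 proteins (the LC3 and GABARAP subfamilies) are coupled to it. Receptors such as SQSTM1 and BNIP3L link cargo to the ATG8 proteins, and are partly degraded with it. Growth factor signaling through AKT and mTORC1 is known to restrain both the ULK1 complex and the transcription factors of autophagy and lysosomal genes. Transcript levels were measured here, and autophagic flux was not.

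SUM225 is a line with amplification and over expression of HER2, and CP724,714 is a small-molecule inhibitor of the HER2 kinase. By the labels, parallel cultures were kept in serum-containing medium with insulin and hydrocortisone, whereas the study's methods describe serum-free medium without insulin. The cultures received 1 µM CP724,714 and were collected at intervals of 3 h up to 45 h. Each time point was measured on 1 Illumina bead array, 16 in all. No time point was replicated and no untreated course was analysed here, so the inhibitor, time in culture and handling at the start cannot be told apart. Errors are standard errors (SE) of a cubic course fitted over all arrays. Within the sets of arrays described below they are those of a straight line with a separate level for each set. In RNA of whole cultures fewer cells and less RNA per cell cannot be told apart.

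The luminal and HER2 amplicon genes ERBB2, GRB7, KRT8, KRT18, KRT19, CDH1 and EPCAM were detected on all 16 arrays. Among markers of other cells, COL3A1 and PTPRC were detected on 0 arrays, CD3E and CDH5 on 1 each, and COL1A1 and COL1A2 on 5 each. PECAM1 was detected on all 16, with normalized log2 values between 6.94 and 8.15. Median signals ranged from 242 to 384 over the arrays and were highest at 27 h, where 8 of the 10 member probes also had their highest signal before normalization. All values below are log2 values after normalization, which set the distributions of the arrays equal. Arrays also fell into 4 sets of 4 consecutive time points (0 to 9, 12 to 21, 24 to 33 and 36 to 45 h), noticed in earlier work on these data. The origin of these sets was not tested, and results are therefore given within them too.

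Upstream sequence is shown for the 4 genes whose courses differed most from a flat line in the first hours or over the whole course. RefSeq windows around the transcript start (GRCh38.p14) were used for 8 of the 9 genes, in 10 windows, of which 3 belonged to SQSTM1. BNIP3L was left out because windows on its chromosome, 8, were not used for the member genes. The windows of all genes had no such filter. The stretches end at the base before the start and are written 5′ to 3′ on the strand of the gene. They lie at chr12:10212727-10212876 on the plus strand for GABARAPL1, chr17:68457497-68457646 on the minus strand for WIPI1, chr12:131894472-131894621 on the plus strand for ULK1 and chr16:87392186-87392335 on the plus strand for MAP1LC3B. Capitals mark GGGCGG, the GC box, and TGACNNNGC, a core of the antioxidant response element, on either strand.
GABARAPL1: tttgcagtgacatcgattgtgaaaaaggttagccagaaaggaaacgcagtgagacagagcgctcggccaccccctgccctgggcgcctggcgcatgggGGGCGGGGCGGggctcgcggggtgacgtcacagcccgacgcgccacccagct
WIPI1: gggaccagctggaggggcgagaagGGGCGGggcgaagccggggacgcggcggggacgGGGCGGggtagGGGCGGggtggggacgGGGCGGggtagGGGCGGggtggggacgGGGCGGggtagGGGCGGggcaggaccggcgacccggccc
ULK1: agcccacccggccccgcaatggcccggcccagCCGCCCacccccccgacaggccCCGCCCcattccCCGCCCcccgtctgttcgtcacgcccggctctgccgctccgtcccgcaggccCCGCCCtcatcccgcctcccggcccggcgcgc
MAP1LC3B: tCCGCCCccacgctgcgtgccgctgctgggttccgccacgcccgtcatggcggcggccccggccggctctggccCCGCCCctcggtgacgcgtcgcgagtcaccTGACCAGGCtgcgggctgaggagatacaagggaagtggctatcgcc

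The WIPI1 stretch held 7 GC boxes. The stretches of ULK1, GABARAPL1 and MAP1LC3B held 4, 2 and 2, and the pair in GABARAPL1 shared bases. A GC box was found in 9 of the 10 windows, against 45.0% of all 35116 RefSeq windows. By gene it was found for 7 of the 8, BECN1 being the exception. The antioxidant core was found in 1 of the 10 windows, that of MAP1LC3B, against 13.3% of all windows. The E-box CACGTG, bound by TFEB and its relatives, and the forkhead motif GTAAACA, bound by FOXO factors, were found in 0 of the 10 windows. They were present in 7.26% and 3.42% of all windows. These letters in these windows say nothing of where a factor binds.

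Transcripts of 7 of the 9 genes rose with time in the inhibitor, and none fell. The largest linear changes over 45 h were those of GABARAPL1 (1.24 ± 0.16) and WIPI1 (1.23 ± 0.13). ULK1, BECN1, MAP1LC3B, GABARAP and GABARAPL2 rose by smaller amounts, between 0.42 and 0.64. For the receptors SQSTM1 and BNIP3L no trend passed the threshold. Counted by probe, 8 of 10 had a rising linear trend at an adjusted p under 0.05 (limma, Benjamini-Hochberg over all 16110 probes tested), where 26.0% of all tested probes rose and 21.7% fell. The same number, 8 of 10, depended on time in the F-test of the cubic course, as did 51.3% of all probes. The course departed from a straight line for 3 probes, the ULK1 pair and MAP1LC3B, against 19.3% of all probes. The median linear change over all probes tested was 0.05.

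**Figure D1:**
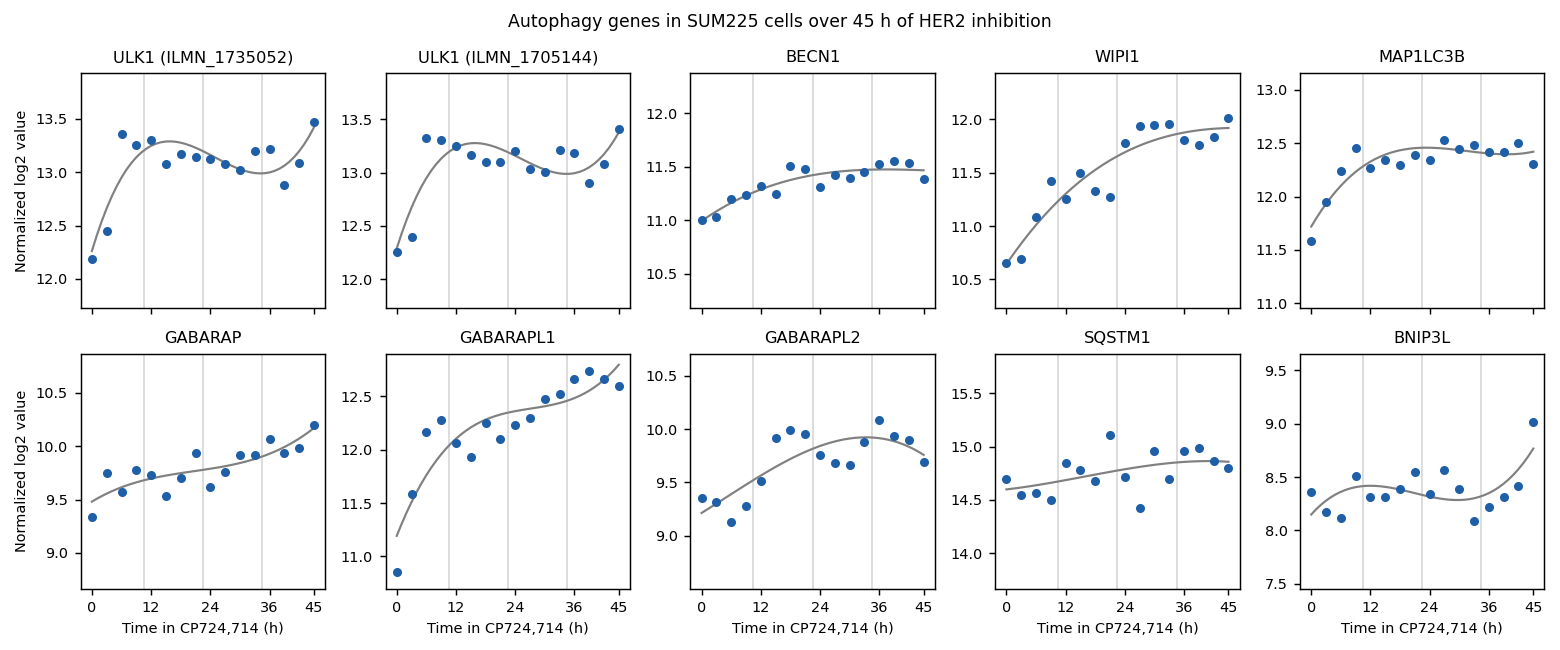
Normalized log2 value (y axis, the same span in every panel) of each tested probe against time in CP724,714 in hours (x axis). Each point is 1 array, the grey line is the fitted cubic course and the vertical lines separate the 4 sets of 4 arrays. ULK1 went from 12.45 at 3 h to 13.36 at 6 h on its brighter probe. SQSTM1 stayed between 14.43 and 15.11, with a linear trend that did not pass the threshold.

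Part of this rise rested on the 0 h array, taken at the start. Of the 10 member probes, 7 had their lowest value on the 0 h array, as did 15.0% of all tested probes. Without the 0 h array the linear trends of both ULK1 probes no longer passed the threshold, and 0 probes departed from a straight line. Within the 4 sets of arrays the fit was a straight line with a level for each set, without the curvature of the cubic. There 0 of the 10 probes had a linear trend at the threshold, against 0.900% of all probes. All 10 estimates were positive, as over the whole course, but those of SQSTM1 (0.01 ± 0.46) and GABARAPL2 (0.04 ± 0.55) were far below their SE. The probes share their arrays, and matching signs were not counted over all probes, so these signs are no evidence of a trend. When the fit allowed a shift of level between 21 and 24 h, 3 probes had a linear trend at the threshold, those of BECN1, GABARAPL2 and SQSTM1.

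**Figure D2:**
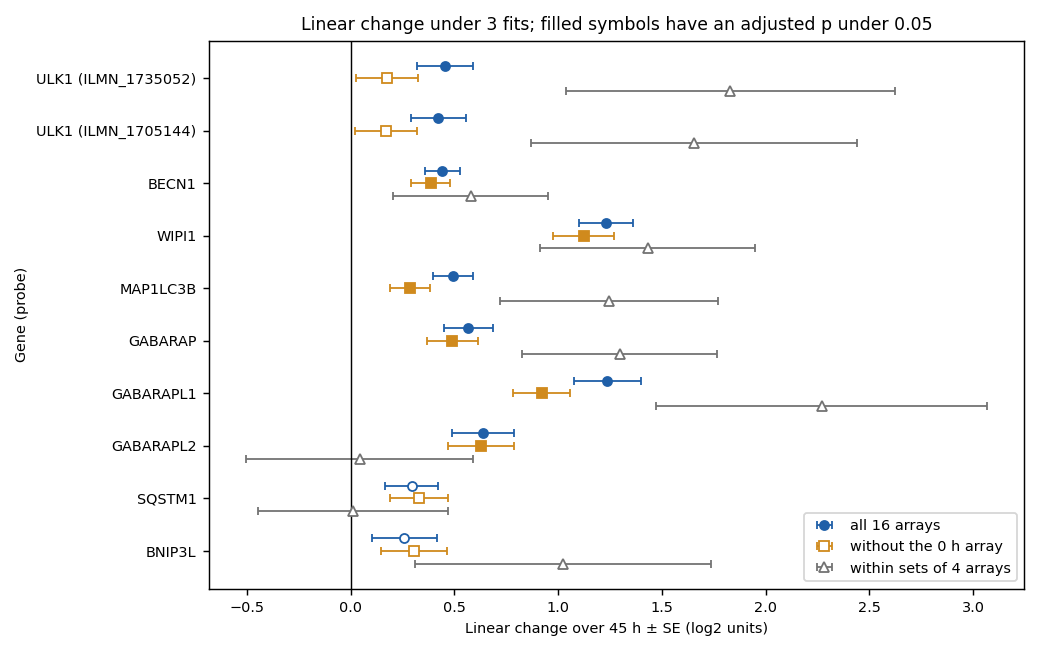
Linear change over 45 h in log2 units (x axis) with its SE (bars) for each tested probe (y axis), from all 16 arrays (circles), without the 0 h array (squares) and within the 4 sets of arrays (triangles). Filled symbols have an adjusted p under 0.05; the ULK1 squares are open at 0.18 and 0.17, and all triangles are open with wide errors.

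ULK1 is the kinase that starts autophagosome formation. From 0 h to 45 h in steps of 3 h, the log2 values of its brighter probe (ILMN_1735052) were 12.19, 12.45, 13.36, 13.25, 13.30, 13.08, 13.17, 13.14, 13.12, 13.07, 13.02, 13.20, 13.22, 12.88, 13.09 and 13.47. The first 2 arrays were the lowest, and all later arrays were at 12.88 or above. The largest step between neighbouring arrays was 0.91, from 3 h to 6 h, against a residual SD of 0.19. After 6 h the values showed no further climb until the 45 h array, the highest. The linear change was 0.45 ± 0.14 (adjusted p = 0.0092), with a departure from a straight line (adjusted p = 0.0030). Its other tested probe (ILMN_1705144) ran from 12.26 at 0 h to 13.41 at 45 h, with the same step of 0.93 from 3 h to 6 h and a linear change of 0.42 ± 0.13 (adjusted p = 0.013). Pearson r between these probes over the 16 arrays was 0.99, on the same arrays. Without the 0 h array the linear changes were 0.18 (adjusted p = 0.37) and 0.17 (adjusted p = 0.38), and without the 3 h array 0.31 (adjusted p = 0.088) and 0.26 (adjusted p = 0.13). Without the 45 h array the second probe lost its call, at 0.36 (adjusted p = 0.054), and the brighter probe did not.

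BECN1 is the scaffold subunit of the class III PI3-kinase complex. From 3 h to 45 h its log2 values were 11.03, 11.20, 11.24, 11.32, 11.25, 11.51, 11.48, 11.31, 11.42, 11.40, 11.45, 11.53, 11.55, 11.53 and 11.38. The 0 h array was the lowest of the 16, 0.03 below the 3 h array, and 39 h was the highest, a range of 0.55, and the values climbed mostly up to 18 h. Over 45 h the linear change was 0.44 ± 0.09 (adjusted p = 0.00025). The residual SD, 0.08, was the smallest of the 10 probes.

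WIPI1 binds PI3P on the forming autophagosome. Its log2 values over the course were 10.65, 10.69, 11.08, 11.42, 11.25, 11.50, 11.33, 11.27, 11.78, 11.94, 11.94, 11.96, 11.81, 11.76, 11.83 and 12.01. All arrays from 24 h on were above all arrays up to 21 h. The largest step was 0.51 between 21 h and 24 h, and the 45 h value was 2.57-fold that at 0 h. Its linear change was 1.23 ± 0.13 (adjusted p = 2.8e-07). Where a shift of level at that point was fitted too, it was 0.36 (adjusted p = 0.37), so the straight rise and this step cannot be told apart.

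Among the ATG8 genes, GABARAPL1, a GABARAP subfamily member, had the widest range of the 10 probes. Its log2 values were 10.86, 11.58, 12.16, 12.28, 12.06, 11.93, 12.25, 12.10, 12.24, 12.30, 12.47, 12.52, 12.66, 12.74, 12.66 and 12.59 from 0 h to 45 h. It was already 0.73 above the start at 3 h and 1.43 above it at 9 h, lay between 11.93 and 12.30 from 12 h to 27 h, and was highest at 39 h, 3.69-fold the 0 h value. All 4 arrays from 36 h on were above every earlier array. The linear change was 1.24 ± 0.16 (adjusted p = 3.7e-06), and 0.92 without the 0 h array. Of all tested probes, 519 (3.22%) had a larger linear change.

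MAP1LC3B encodes LC3B, the ATG8 protein most used as a marker of autophagosomes. Its log2 values were 11.58, 11.95, 12.24, 12.46, 12.27, 12.34, 12.30, 12.39, 12.34, 12.53, 12.45, 12.49, 12.42, 12.42, 12.50 and 12.30. The first 2 arrays were the lowest, and from 9 h on the values stayed between 12.27 and 12.53. MAP1LC3B had a linear change of 0.49 ± 0.10 (adjusted p = 0.00032), with a departure from a straight line (adjusted p = 0.0080). Without the 0 h array it was 0.29 (adjusted p = 0.022).

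GABARAP had log2 values of 9.33, 9.75, 9.57, 9.78, 9.73, 9.53, 9.70, 9.94, 9.62, 9.76, 9.92, 9.92, 10.07, 9.94, 9.98 and 10.20. It was lowest at 0 h and highest at 45 h, 1.82-fold apart, and neighbouring arrays differed by up to 0.42. A linear change of 0.57 ± 0.12 was fitted (adjusted p = 0.00056).

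GABARAPL2, also called GATE-16, followed a later course, with log2 values of 9.36, 9.32, 9.13, 9.28, 9.51, 9.91, 9.99, 9.96, 9.76, 9.68, 9.67, 9.88, 10.08, 9.94, 9.90 and 9.69. The 4 arrays up to 9 h were the lowest of all and did not climb. The largest step, 0.40, lay between 12 h and 15 h. The highest value was at 36 h, and at 45 h the probe was 1.26-fold above the start. The linear change was 0.64 ± 0.15 (adjusted p = 0.0016) over the whole course and 0.04 ± 0.55 (adjusted p = 0.98) within the sets of 4 arrays. Between its ends the 12 to 21 h set changed by 0.44, and the 36 to 45 h set by -0.39.

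The 6 pairs of these 4 ATG8 genes were compared by the trend of their log2 difference with time, in permutation tests (100000 resamples, two-sided, 12 relations adjusted together by Benjamini-Hochberg, 16 arrays). Free permutation takes the 16 arrays as exchangeable, which was not tested for neighbouring times or for the sets. Over the whole course GABARAPL1 rose more than MAP1LC3B. The difference MAP1LC3B minus GABARAPL1 changed by -0.74 over 45 h, with Pearson r = -0.84 (permutation p = 8.0e-05, adjusted p = 0.00096) and Spearman rho = -0.82 (permutation p = 0.00034, adjusted p = 0.0020). Without the 0 h and 45 h arrays, r was -0.77 (permutation p = 0.0014). GABARAPL1 also rose more than GABARAP, by 0.67, with r = -0.65 (permutation p = 0.0035, adjusted p = 0.014) and rho = -0.62 (permutation p = 0.013, adjusted p = 0.039) for GABARAP minus GABARAPL1, and r was -0.66 (permutation p = 0.0059) without those 2 arrays. That pair lost its call without the 0 h array alone, where the change was -0.43 (adjusted permutation p = 0.12), and without the 3 h array, where it was -0.57 (adjusted permutation p = 0.052). For GABARAPL1 minus GABARAPL2 the change was 0.60, with r = 0.47 (permutation p = 0.064, adjusted p = 0.15) and rho = 0.40 (adjusted permutation p = 0.26), and it passed the threshold without the 6 h or the 9 h array (0.81 and 0.75, adjusted permutation p = 0.022 and 0.039). The 3 pairs among MAP1LC3B, GABARAP and GABARAPL2 had r between -0.17 and -0.08, with adjusted permutation p of 0.79 or more. Permuted within the sets of 4 arrays, 0 of the 6 pairs passed the threshold, the lowest adjusted permutation p being 0.23.

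SQSTM1 is the receptor that binds ubiquitin-tagged cargo. Its log2 values were 14.70, 14.54, 14.56, 14.50, 14.85, 14.78, 14.68, 15.11, 14.71, 14.43, 14.96, 14.70, 14.96, 14.98, 14.87 and 14.80. The arrays from 36 h on, between 14.80 and 14.98, were all above those up to 9 h, between 14.50 and 14.70. From 12 h to 33 h high and low arrays were mixed, with the lowest of the course at 27 h and the highest at 21 h, 1.61-fold apart. The linear change was 0.29 ± 0.13 (adjusted p = 0.068). The call was gained with array weights (0.36, adjusted p = 0.030), without the 12 h, 21 h or 27 h array (0.32, 0.30 and 0.32, adjusted p between 0.018 and 0.050) and with a shift of level at 24 h (1.09, adjusted p = 0.0062). Its signal reached 64.9% of the brightest probe on the array.

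BNIP3L, a receptor on mitochondria that carries them to autophagosomes, had log2 values of 8.36, 8.17, 8.11, 8.51, 8.32, 8.32, 8.39, 8.55, 8.34, 8.57, 8.39, 8.09, 8.21, 8.32, 8.41 and 9.02. The 15 arrays up to 42 h stayed within 8.09 and 8.57, and the 45 h array stood 0.61 above its neighbour. The linear change was 0.26 ± 0.16 (adjusted p = 0.19), and 0.04 (adjusted p = 0.86) without the 45 h array.

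**Figure D3:**
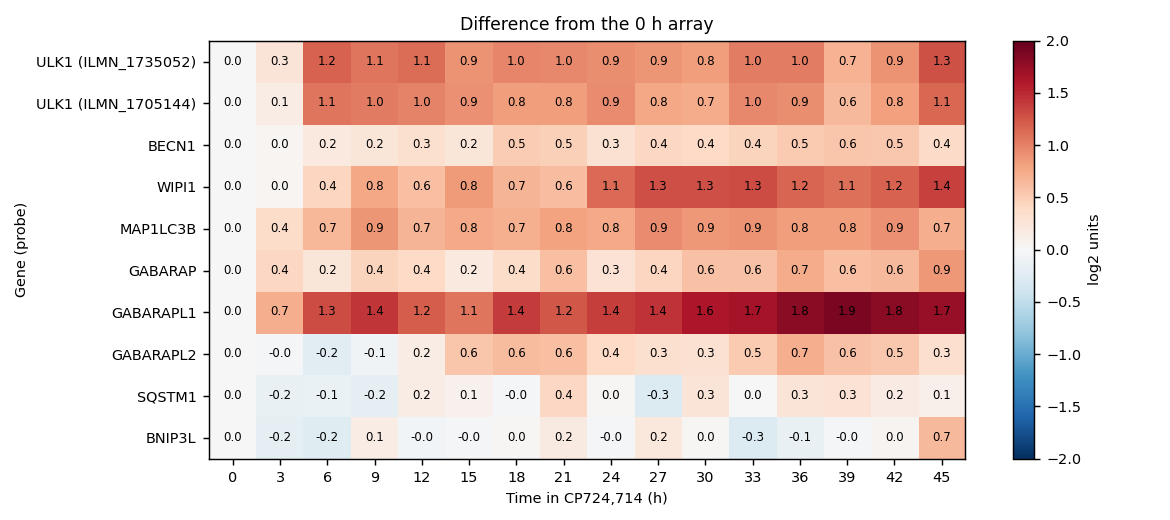
Difference of each tested probe (y axis) from its own value on the 0 h array, in log2 units (colour and printed value), at each time in CP724,714 in hours (x axis). ULK1, MAP1LC3B, WIPI1 and GABARAPL1 stood at least 0.77 above the start at 9 h, GABARAPL2 was above it from 12 h on, and SQSTM1 and BNIP3L lay on both sides of it.

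Single time points were also set against the 0 h array at a threshold of 1.7-fold, without a test. The study applied that fold change at any time point, in another cell line (MCF10HER2), to select genes for its further analysis. At 9 h, 5 of the 10 probes were at least 1.7-fold above 0 h (both ULK1 probes, WIPI1, MAP1LC3B and GABARAPL1), where 5.71% of all tested probes were. WIPI1 lay at the threshold, at 0.77 log2 units. At 45 h, 5 were (both ULK1 probes, WIPI1, GABARAP and GABARAPL1), where 13.7% of all tested probes were. GABARAP, at 1.82-fold, was under the threshold without background correction (9.67 at 0 h, 10.39 at 45 h) and with median scaling (9.30 and 10.05). GABARAPL1 was past this threshold on every array from 6 h on. No member probe was 1.7-fold below the start at any time point.

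Courses of different genes were compared by Pearson r over the 16 arrays, as a description of points that share their arrays. GABARAPL1 and MAP1LC3B had r = 0.89, and 0.83 after a straight line in time was removed from each. ULK1 and MAP1LC3B had r = 0.76 on either ULK1 probe, and 0.69 and 0.71 after the line was removed. SQSTM1 and BNIP3L had r = 0.09. Outside the autophagy genes, the gene most like GABARAPL1 among 12938 was CDKN2C (r = 0.98), an inhibitor of the kinases CDK4 and CDK6, followed by IRX2-DT (0.97). MAP1LC3B was most like ERBB3 (0.95), the partner receptor of HER2, and SLC24A1 (0.95). WIPI1 was most like ZMYND12 (0.98) and VWF (0.97), BECN1 most like FBXO3 and NAPB (0.95 each), and ULK1 most like PUM2 and ZNF205 (0.93 each). GABARAP was most like DHX32 and TMEM37 (0.90 each), and for GABARAPL2 an r of 0.93 was found with SARAF. The r values were lower for SQSTM1, with B4GALNT1 (0.82) and KCNK15 (0.81), and for BNIP3L, with ARAF (0.85) and HSPB8 (0.83).

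The wider pathway was read from a list of 95 autophagy genes in 9 roles, of which 87 were on the array and 85 were tested, with the brightest probe of each gene. Of the 85, 41 rose, 5 fell and 39 did not pass the threshold. Over all genes tested, 27.1% rose and 22.0% fell. The median linear change was 0.33 over the list and 0.06 over all genes. Without the 9 genes described above, 34 of 76 rose and 5 fell, with a median of 0.27. Within the sets of 4 arrays, 1 of the 85 had a linear trend past the threshold, CCPG1. Of the 41 that rose, 11 had another tested probe, which did not pass the threshold for 6 of them and fell for 0.

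Initiation and membrane genes rose in part, and their counts stand beside the 27.1% of all genes tested that rose and the 22.0% that fell. In the ULK complex 3 of 5 genes rose, most of all the scaffold RB1CC1 (0.79 ± 0.10, from 9.88 at 0 h to 11.07 at 45 h, adjusted p = 3.0e-06). In the class III PI3-kinase group 4 of 7 rose, with ATG14, the subunit that directs the complex to autophagy, at 0.83 ± 0.13 (10.37 to 11.36, adjusted p = 4.1e-05). One gene of that group fell, VMP1, an endoplasmic reticulum membrane protein (-0.23 ± 0.08, adjusted p = 0.032). Of the PI3P effectors and membrane genes 4 of 7 rose, and WIPI1 had the largest change. Of the 10 conjugation enzymes and proteases 3 rose (30%), near the share of all genes, and the other 7 did not pass the threshold. ATG5, the conjugation partner of ATG12, changed by 1.30 ± 0.13 (8.29 to 9.92, adjusted p = 1.8e-07).

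Of the 6 ATG8 genes on the array 5 rose, against 27.1% of all genes tested. MAP1LC3A had the largest change (1.43 ± 0.23, 7.02 to 8.23, adjusted p = 3.3e-05). Within the sets of 4 arrays its estimate was -0.46 (adjusted p = 0.83). Receptors rose for 10 of 18, against the same 27.1%. CCPG1, a receptor for endoplasmic reticulum, changed by 1.87 ± 0.12 (9.78 to 11.98, adjusted p = 2.9e-10) and by 2.02 ± 0.43 within the sets (adjusted p = 0.035). Fusion genes rose for 7 of 12, again against 27.1% of all genes. Among these VAMP8, a SNARE of vesicle fusion, changed by 0.99 ± 0.06 (14.14 to 15.53, adjusted p = 3.2e-10), and the autophagosomal SNARE STX17 fell by 0.53 (SE 0.21, adjusted p = 0.043), though its estimate within the sets was 0.22 (adjusted p = 0.94).

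The genes that control autophagy were split into transcription factors and the mTORC1 and AMPK group. Of the 6 transcription factors 3 rose, against 27.1% of all genes tested. FOXO3 changed by 0.64 ± 0.09 (11.84 to 13.13, adjusted p = 1.2e-05), and MITF fell by 1.86 (SE 0.14, 9.01 to 7.37, adjusted p = 3.8e-09). A second MITF probe changed by -0.12 ± 0.19 (adjusted p = 0.64). TFEB was detected on 8 arrays and changed by -0.13 ± 0.22 (adjusted p = 0.67). In the mTORC1 and AMPK group 2 of 14 rose, 2 fell and 10 did not pass the threshold, against the 27.1% and 22.0% of all genes given above. PRKAA1, one of the genes for the AMPK catalytic subunit, changed by 1.34 ± 0.09 (10.98 to 12.30, adjusted p = 1.0e-09). PRKAA2, the other gene for that subunit, fell by 0.65 (SE 0.19, 8.07 to 7.26, adjusted p = 0.0095). AKT1S1, the AKT substrate in mTORC1, fell by 1.29 (SE 0.16, 8.30 to 7.42, adjusted p = 2.3e-06).

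**Figure D4:**
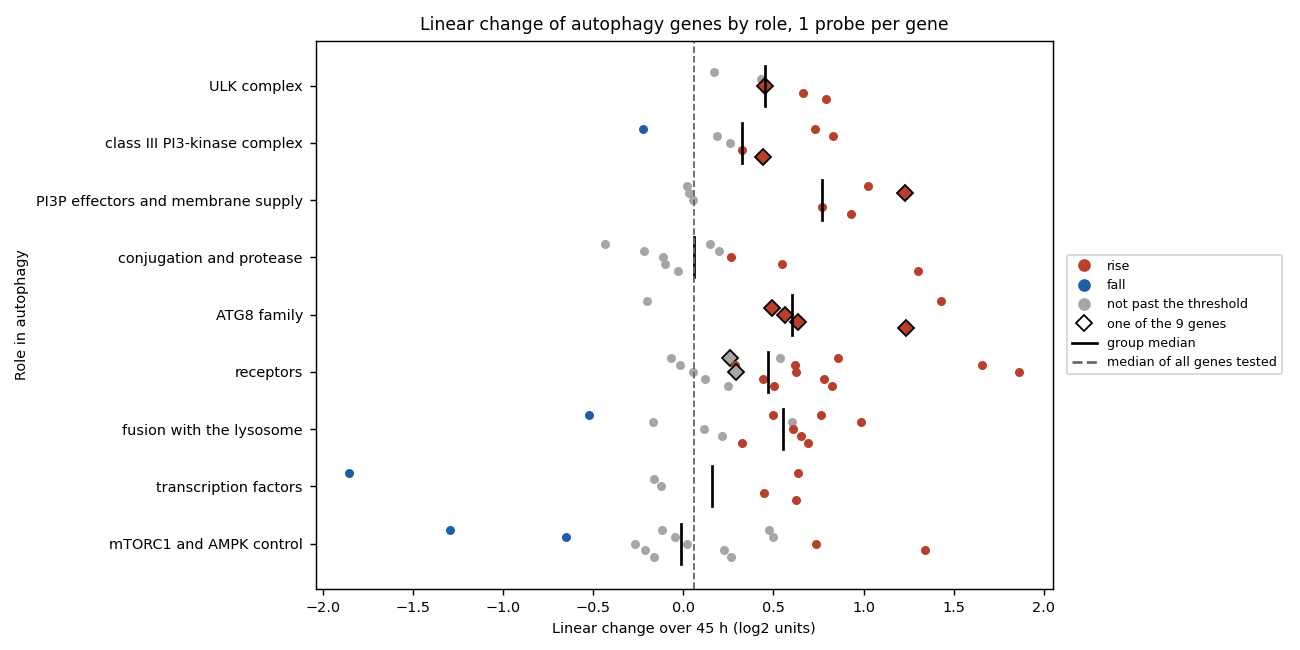
Linear change over 45 h in log2 units (x axis) of the 85 tested autophagy genes by role (y axis), 1 point per gene on its brightest probe, with the group median (black bar) and the median of all genes tested (dashed, 0.06). Red points rose and blue points fell at an adjusted p under 0.05, and diamonds are the 9 genes; group medians ran from -0.01 in the mTORC1 and AMPK group to 0.77 in the PI3P group.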

How the data were processed

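SUM225 RNA was measured on 1 Illumina bead array at each of 16 time points, grouped by the time in the labels. The deposited table gives a linear signal intensity per probe and array, to which the authors had applied no normalization, and a detection p-value. The study's methods describe quantile normalization after this step; scanner and software versions were not given in the sources used here. The labels state a medium with serum and insulin, whereas the study's methods describe serum-free medium without insulin for SUM225. Signals were corrected by limma 3.58.1 (R 4.3.3; function neqc, offset 16, quantile normalization, log2), with background inferred from the detection p-values, which reduces small changes near background. Testing was limited to 16110 probes detected (p under 0.05) on 3 or more arrays. A cubic course was fitted with lmFit and eBayes (trend), two-sided, adjusted by Benjamini-Hochberg at 0.05; its first-order coefficient, scaled to 45 h, is the linear change. The fit was also run on simulated linear courses with independent noise. These held no sets of arrays and no dependence between neighbouring times, so they cannot test the fit for either. The number of arrays limits the precision, and residuals around the course stand in for replicates, so p-values measure only that spread.

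The members and lists were chosen with earlier results of these data known. All probes of the 9 genes were described. Other autophagy genes were named where they had the largest rise or fall in their role group or were VAMP8 (TFEB and PRKAA2 were added after their values were seen), and the 2 most alike genes were named per member, of which 1 is not reported here. Of the symbols, 91.0% matched the RefSeq table of GRCh38.p14. Probe sequences were not used here, so transcripts of near-identical copies such as GABARAPL3 and MAP1LC3B2, which had 0 probes of their own, may contribute. Alternatives were no background correction, an offset of 50, median scaling, cyclic loess, other filters, a step, sets of arrays, array weights, a straight line, a spline and each array left out. The alternatives for the 1.7-fold counts and ATG8 pairs were added after seeing the data. Python 3.11.15 with matplotlib 3.10.9 drew the figures.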

Additional observations from a re-analysis of the deposited data

How the results depend on the processing

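No paired analysis was possible because no time point had more than 1 array. Under the 4 other background and scaling choices, both other filters and array weights, the count of member probes with a linear trend, 8 in the report, stayed within 1.5 times. It was 3 with a step between 21 and 24 h (3 rising, 0 falling) and 0 within the sets of 4 arrays. The count of autophagy list genes, 46 in the report, was 18 with the step (14 rising, 4 falling) and 1 within the sets. The count of curved courses, 3 in the report, was 5 with the step and 0 without the 0 h array. The linear change of each member probe was recomputed under 24 settings (4 scalings, the step, the sets, array weights, a straight line and each array left out). All 10 probes kept its sign in these, and of 240 values 214 kept their side of the threshold, 21 lost and 5 gained it. Leaving out single arrays ended calls for both ULK1 probes, the lowest values being 0.18 and 0.17 without the 0 h array and the highest 0.59 and 0.55 without the 6 h array; a straight line without curvature gave 0.45 (adjusted p = 0.097) and 0.42 (adjusted p = 0.11). The scaling moved the median linear change of all probes between 0.00 (cyclic loess) and 0.05, and the share of rising calls among all calls was 48.0% with cyclic loess against 54.5%. The number of probes past 1.7-fold was 4 or 5 of 10 at 9 h and at 45 h under each scaling. Cause of the changes with the step and the sets was not tested; the factors take up part of the time course by construction. Differences between neighbouring time points rest on 1 array each.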
